A study of Mus musculus with 4 samples.

Results

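The 10 genes described here encode enzymes that a red cell depends on for energy and for protection from oxidation: Pklr, Hk1, Bpgm, Gpi1, Aldoa and Tpi1 of glycolysis, Prdx2, Cat and Gpx1, which remove peroxides, and Car2, a carbonic anhydrase. Their regions of open chromatin were taken from 4 deposited ATAC-seq peak lists. A peak belonged to a gene when its summit lay in the gene body, or within 100 kb with that gene's end as the nearest end of any mouse RefSeq protein-coding gene. By this rule 48, 33, 36 and 39 peaks of WT replicates 1 and 2 and Hemgn KO replicates 1 and 2 belonged to the 10 genes. Merged across libraries at an overlap of at least 1 bp, they formed 55 of the 55290 regions on chromosomes 1 to 19, X and Y, near 10 of 21774 genes.

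The cells came from fetal livers of mice at embryonic day 14.5. Both groups were whole fetal liver cells of that age: 2 libraries carried the genotype WT and 2 the genotype KO for hemogen (Hemgn), a nuclear protein of blood-forming cells whose cooperation with the remodelling ATPase BRG1 is named in the title of the study. The kind of knockout allele, the strain, the sex and whether replicates came from separate embryos are not given in the labels, so the spread between replicates may be technical. ATAC-seq cuts accessible DNA with a transposase, and was run by the Omni-ATAC protocol.

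A mature red cell has no mitochondria and makes its ATP by glycolysis alone. Bisphosphoglycerate, made in a side branch of that pathway, lowers the oxygen affinity of hemoglobin, and peroxiredoxin, catalase and glutathione peroxidase protect hemoglobin and the membrane from peroxide. In fetal liver most cells at this age are erythroid precursors, and many of these genes have starts or nearby elements used in erythroid cells, alongside starts used in other tissues.

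The lists held 47858, 34181, 35426 and 43018 peaks in the same order of libraries. Depth is not part of a peak list, but the fold and p-value of each peak return the number of fragments over its summit and the local background; both were recovered for 100% of peaks. The most frequent background was 5.67, 2.29, 2.49 and 3.80 fragments, so WT replicate 1 was the deepest library and WT replicate 2 the shallowest, by 2.48-fold. The fewest fragments at any listed peak were 15, 9, 9 and 12, so a weaker site was not detectable in that list. At the Hemgn gene itself every library had 1 peak at the gene boundary, at percentiles of 33.0, 27.9, 35.5 and 34.3, so the peak lists neither separate the genotypes there nor check the knockout. Among 8 erythroid marker genes 7, 7, 6 and 7 had a peak within 1 kb of either gene end. The counts for other cells were 3, 3, 1 and 3 of 5 for hepatocytes and 2, 0, 1 and 2 of 4 for macrophages. They were 1, 1, 0 and 1 of 4 for granulocytes and 0, 0, 2 and 2 of 4 for B lymphoid cells. For megakaryocytes they were 3, 2, 2 and 2 of 3, and for endothelial cells 1, 2, 2 and 3 of 3.

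Promoters are shown for the genes whose starts or neighbouring regions carry the results below: the upstream start of Pklr, the uncovered and the covered start of Hk1, and the starts of Bpgm, Prdx2 and Cat. Each is the RefSeq window of build GRCm38.p6 from 250 bases before to 50 after the start, 5′ to 3′ on the gene's strand. Capitals mark matches on either strand to the erythroid GATA motifs AGATAA and TGATAA, the KLF1 motif CCNCNCCC, the hypoxia motif ACGTG and the antioxidant motif TGACNNNGC.
Pklr start 1 (chr3:89135892-89136191, plus strand): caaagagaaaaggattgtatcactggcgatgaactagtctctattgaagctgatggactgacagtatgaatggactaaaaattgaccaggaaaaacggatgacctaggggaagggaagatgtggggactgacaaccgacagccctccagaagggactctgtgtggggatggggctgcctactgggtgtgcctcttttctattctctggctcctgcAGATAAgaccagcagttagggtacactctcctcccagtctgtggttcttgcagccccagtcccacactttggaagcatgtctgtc
Hk1 start 1 (chr10:62379859-62380158, minus strand): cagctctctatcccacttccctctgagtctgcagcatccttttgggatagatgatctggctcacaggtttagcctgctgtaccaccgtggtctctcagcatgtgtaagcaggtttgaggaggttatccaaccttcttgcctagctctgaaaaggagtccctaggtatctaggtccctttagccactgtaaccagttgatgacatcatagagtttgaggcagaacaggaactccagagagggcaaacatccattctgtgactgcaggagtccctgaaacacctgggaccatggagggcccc
Hk1 start 2 (chr10:62340372-62340671, minus strand): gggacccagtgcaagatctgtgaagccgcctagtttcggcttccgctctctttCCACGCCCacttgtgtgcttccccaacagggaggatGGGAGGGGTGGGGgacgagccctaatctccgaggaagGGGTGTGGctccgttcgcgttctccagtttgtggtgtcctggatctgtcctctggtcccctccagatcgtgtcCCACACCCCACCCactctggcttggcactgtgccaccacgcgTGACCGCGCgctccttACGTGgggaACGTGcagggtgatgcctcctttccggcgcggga
Bpgm (chr6:34476106-34476405, plus strand): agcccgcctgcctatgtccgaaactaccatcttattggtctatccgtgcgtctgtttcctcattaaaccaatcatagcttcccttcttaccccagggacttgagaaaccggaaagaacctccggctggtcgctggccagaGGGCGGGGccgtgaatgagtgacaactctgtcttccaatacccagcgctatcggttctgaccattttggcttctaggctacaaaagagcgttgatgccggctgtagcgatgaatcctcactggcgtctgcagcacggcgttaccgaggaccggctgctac
Prdx2 (chr8:84969372-84969671, plus strand): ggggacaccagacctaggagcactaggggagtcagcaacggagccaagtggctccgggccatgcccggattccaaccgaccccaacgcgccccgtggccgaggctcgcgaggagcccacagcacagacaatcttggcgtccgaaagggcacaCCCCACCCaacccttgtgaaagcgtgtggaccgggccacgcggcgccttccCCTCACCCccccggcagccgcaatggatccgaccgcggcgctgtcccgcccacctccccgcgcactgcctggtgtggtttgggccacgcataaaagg
Cat (chr2:103485104-103485403, minus strand): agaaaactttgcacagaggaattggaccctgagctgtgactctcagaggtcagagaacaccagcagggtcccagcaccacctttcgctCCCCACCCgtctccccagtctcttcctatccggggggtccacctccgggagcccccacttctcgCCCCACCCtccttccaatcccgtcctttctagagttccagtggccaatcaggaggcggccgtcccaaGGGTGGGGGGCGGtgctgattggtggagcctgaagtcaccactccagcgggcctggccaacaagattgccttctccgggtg
The upstream Pklr window holds the single GATA match AGATAA, beginning at -35 from the start, and no KLF1 match. The Hk1 window at start 2 holds 6 KLF1 matches, some of which overlap, 2 hypoxia matches and 1 antioxidant match, whereas the outermost Hk1 window holds none of the 4 kinds. The Cat window holds 4 KLF1 matches, those of Prdx2 and Bpgm 2 and 1. Of 13 RefSeq starts of 9 of the 10 genes, 10 had a KLF1 match, against 49.5% of 32851 RefSeq promoters of the same length. GATA matches occurred at 2 of the 13 starts (18.6% of all promoters), hypoxia matches at 4 (19.6%), antioxidant matches at 3 (12.4%) and the E-box CANNTG, which is not capitalised, at 8 (72.3%). The windows at starts 2 and 3 of Aldoa overlap, so some of the same KLF1, hypoxia and E-box matches count at both. A match is a description of the letters and does not mark a bound site.

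The promoters of these genes were open in both genotypes. A peak covered 11 of the 13 starts in all 4 libraries (84.6%), against 54.9% of 21263 windows at starts of protein-coding genes. The other 2 starts, the outermost ones of Hk1 and Aldoa, had no peak in any library, and each of these genes was covered at a start further inside. At the gene ends, 8 of the 10 genes had a peak within 1 kb in all 4 libraries, against 55.4% of all genes; the exceptions were again Hk1 and Aldoa, whose covered starts lie inside the gene.

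Of the 55 regions 29 were present in all 4 libraries (52.7%, against 49.7% of all regions) and 2, both at Car2, in 3 libraries. Another 18 were found in 1 library (32.7%, against 25.0% of all regions). Of these, 9 were in WT replicate 1, 6 in Hemgn KO replicate 2, 3 in Hemgn KO replicate 1 and 0 in WT replicate 2. The order of these counts is the order of depth of the libraries. Over all regions the counts had the same order, at 7157, 3926, 1704 and 1030. Hk1 had 13 regions, Bpgm 11, Car2 10, Cat 8 and Pklr 4, while Gpi1, Aldoa, Tpi1 and Gpx1 had 2 each and Prdx2 had 1.

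**Figure D1:**
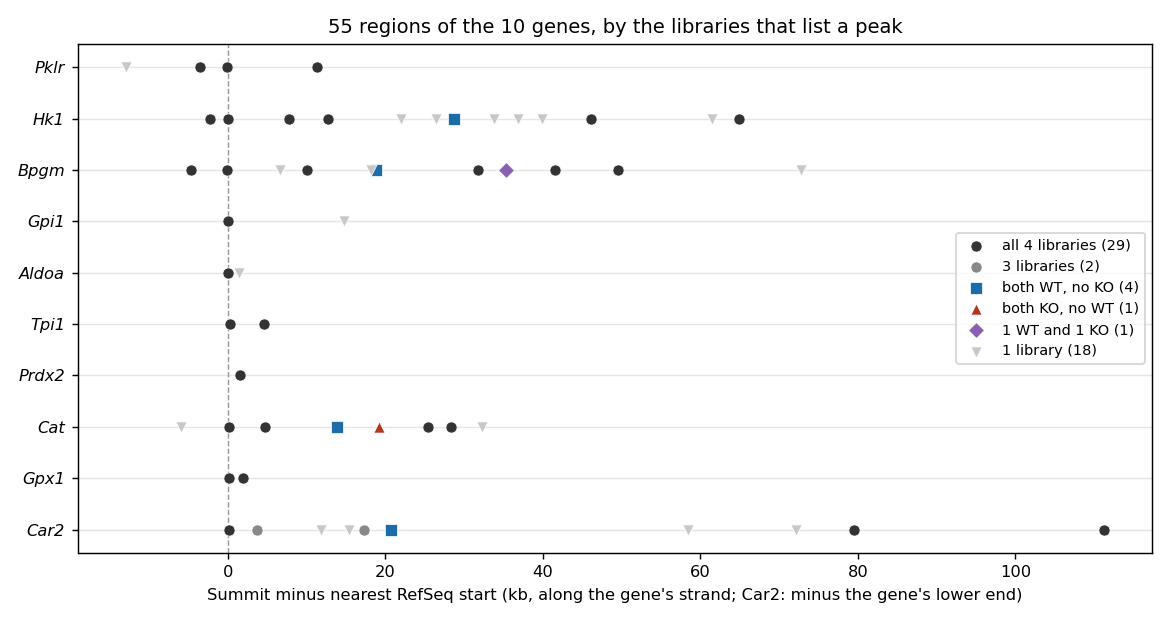
Position of the 55 regions along each gene, as the distance in kb of the median summit from the nearest RefSeq start on the gene's strand (for Car2, from the gene's lower end). Colour and shape give the libraries with a peak; the 29 regions found in all 4 libraries include one at or within 1 kb of a start (for Car2, of its lower end) for every gene but Prdx2, and the 4 regions of both WT libraries alone lie inside or beyond Hk1, Bpgm, Cat and Car2.

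Presence in one genotype alone was seen at 5 weak regions. Among the 36 regions of these genes that both libraries of a genotype share, 4 were WT-only, 1 each at Hk1, Bpgm, Cat and Car2, or 11.1% against 3.39% of all such regions. One was KO-only, at Cat, or 2.78% against 2.16% of all such regions. The WT-only region of Hk1 (chr10:62311584-62311919) lies within the gene and had 25 and 13 summit fragments (exact Poisson 95% intervals 16.2 to 36.9 and 6.92 to 22.2) in WT replicates 1 and 2. That of Bpgm (chr6:34494993-34495509), also within the gene, had 25 and 17. The WT-only region of Cat (chr2:103471080-103471439), in the gene body, had 28 and 12, and that of Car2 (chr3:14906760-14907772), 6215 bp beyond the gene, had 47 and 23. The KO-only region (chr2:103465551-103466091), in the gene body of Cat, had 12 and 15 fragments in the KO replicates. In fragments these peaks ranked between percentiles 4.62 and 47.2 of their lists. These counts depended on which lists were used: with lists of equal length the WT-only count was 2 and the KO-only count 1. Leaving out WT replicate 2 raised the WT-only count to 13. The KO-only count became 3 on leaving out WT replicate 1, and 7 or 4 on leaving out the first or the second KO replicate. With a library fewer, presence in a single genotype is easier to meet, so leaving 1 out can only keep or raise these counts. They cannot be set against the shares above. Intervals cover counting error only.

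Within each list the peaks were ranked by the authors' fold enrichment, which compares the fragments at the summit with the local background, and given a percentile. Lists of different length and depth give ranks that do not by themselves show a change, so the percentiles describe where a gene stands in its own list. Over the 29 regions in all 4 libraries the median of the mean percentile was 47.4, against 63.9 over all 27473 such regions. Both KO percentiles lay above both WT percentiles at 3 of the 29 regions (10.3%, against 9.97% of all regions) and below both at 3 (10.3%, against 13.6%). These shares are near the background. With lists of equal length the counts were 5 and 5, and with percentiles taken among the regions in all 4 libraries 6 and 5. Leaving out WT replicate 1 gave 14 above and leaving out Hemgn KO replicate 1 gave 6. Leaving out WT replicate 2 gave 24 below, and leaving out Hemgn KO replicate 2 gave 14. With a library fewer, non-overlap is easier to meet, so leaving 1 out can only keep or raise these counts. The median KO minus WT difference was -0.85 percentile points, against -0.58 over all regions. Its sign turned on leaving out WT replicate 1 (to 4.64) or Hemgn KO replicate 1 (to 1.86). Leaving out WT replicate 2 gave -6.75, and leaving out Hemgn KO replicate 2 gave -3.39. An exact permutation test of a single region over 4 libraries has 6 relabelings and cannot give a two-sided p below 0.333.

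**Figure D2:**
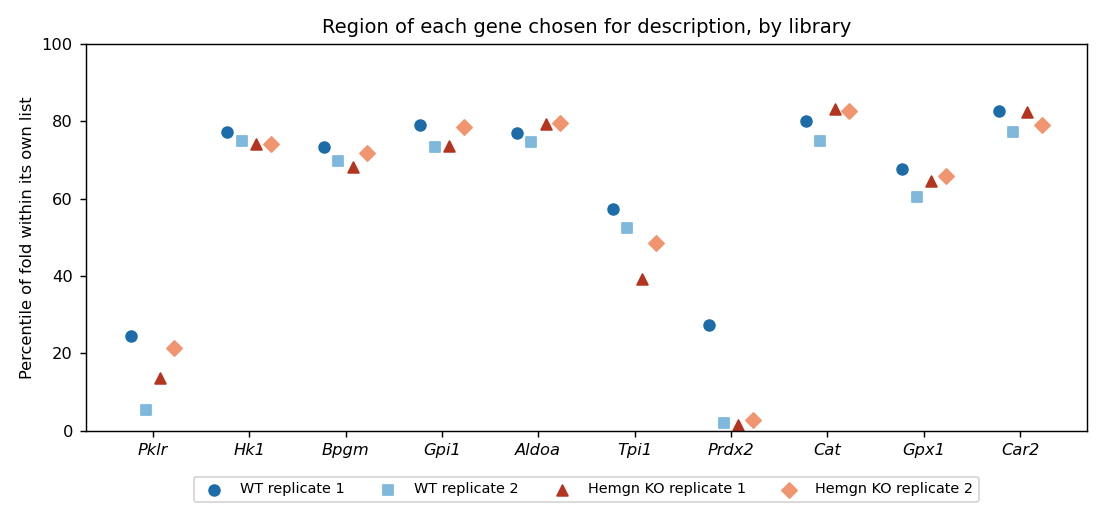
Percentile of fold within its own list (0 to 100) for the region of each gene with the highest mean percentile at the gene boundary, or, for Hk1, Aldoa and Prdx2, which have none assigned there, overall. Points are the 4 libraries; Cat, Car2, Gpi1, Aldoa and Hk1 lie between 73.4 and 83.3 in every library, and Pklr and Prdx2 lie low.

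To set levels side by side, summit fragments were scaled by the median ratio over the 27473 regions in all 4 libraries (factors 1.72, 0.695, 0.785 and 1.08), and log2 values were compared by limma with Benjamini-Hochberg adjustment over all of them. This comparison was added after seeing the data. Genome-wide, 188 regions were higher in KO at an adjusted p under 0.05 (0.684%) and 174 lower (0.633%). Of the 29 regions of these genes 0 were called higher and 1, in the body of Prdx2, was called lower. At an unadjusted p under 0.05 there were 11 of 29, against 14.6% of all regions. Of these, a region of Tpi1 and a region of Car2 were higher in KO and the others were lower. Both KO values lay below both WT values at 15 of the 29 (against 22.1% of all regions) and above both at 4 (against 21.8%). Hk1, Bpgm and Cat each gave several of the 15, and regions of the same gene are not independent. The median log2 KO over WT was -0.18 over the 29 regions and -0.0024 over all regions. With each library left out the count below was 16 to 21 and the count above 5 to 7, the latter without Hemgn KO replicate 1. With a library fewer, non-overlap is easier to meet, so these counts can only stay or rise. They cannot be set against the shares above. With fragments scaled by the library background instead, the count above was 2.

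Erythroid marker genes were measured in the same way. Of 7 erythroid marker regions at gene boundaries in all 4 libraries, 5, among them Klf1 and Hbb-bs, had both KO values below both WT values in scaled fragments (22.1% of all regions did), 0 had both above (21.8%), 4 had an unadjusted p under 0.05 and 0 were called. Gata1 had no boundary peak in any library, but its RefSeq start was covered by a peak in all 4. In percentiles the order was mixed: 1 of the 7 was below (Klf1) and 1 above, Hbb-bs, at 55.7 and 47.5 in WT against 58.2 and 57.2 in KO. Their scaled fragments summed to 2306 and 1993 in WT, against 1643 and 1803 in KO. In a mixed tissue, fewer erythroid cells and less accessible DNA per erythroid cell cannot be told apart, and the part of either in the values below was not tested. For other cells the sums in WT were 103 and 82.0, against 118 and 102 in KO, over 2 hepatocyte genes, 277 and 256 against 185 and 230 for 2 megakaryocyte genes, and 37.1 and 36.0 against 44.6 and 45.4 for 1 endothelial gene. Macrophage, granulocyte and B lymphoid markers had no boundary region in all 4 libraries.

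**Figure D3:**
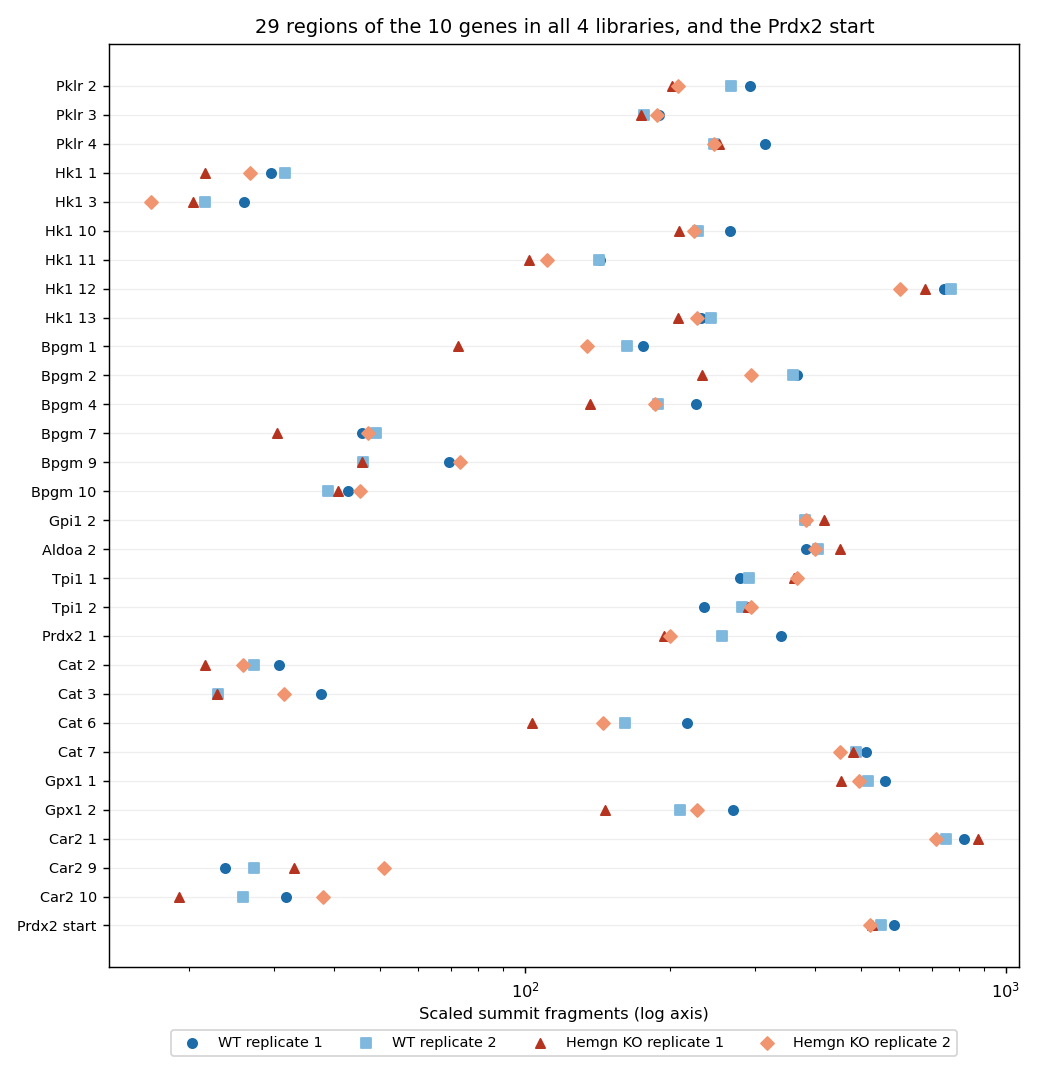
Scaled summit fragments (log axis) in the 4 libraries for the 29 regions in all 4 libraries, numbered along the chromosome within each gene, and for the region at the Prdx2 start. KO points lie left of WT points in 15 of the 29 regions, among them all 6 of Hk1 and the promoter and upstream regions of Bpgm, and right of them at both Tpi1 regions.

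Pklr encodes the pyruvate kinase of liver and red cells, with a red cell promoter upstream of the liver promoter. A single region (chr3:89136032-89137441) covered both starts in all 4 libraries. Its summits lay at +317, +233, +490 and +318 from the upstream start, so between the starts or just past the downstream one. In WT it had 190 and 177 scaled fragments, against 174 and 188 in KO, and the groups overlapped (log2 KO over WT -0.017 ± 0.140 SE, adjusted p = 0.978; the sign turned with a cyclic loess scaling, to 0.048, and without WT replicate 1 or Hemgn KO replicate 1, to 0.033 or 0.037). Its percentile was low, 24.5, 5.41, 13.7 and 21.3, beside a local background of 92.8, 38.8, 39.0 and 56.1 fragments. Both KO libraries were lower at a second region 3534 bp outside the gene on the upstream side (chr3:89132239-89134337). It had 293 and 268 scaled fragments in WT and 202 and 207 in KO, 0.731-fold (log2 -0.45 ± 0.13 SE, adjusted p = 0.0775). This difference did not pass the threshold, although the groups did not overlap. It passed without Hemgn KO replicate 2 (-0.47, 0.0301), and the adjusted p was 0.107 to 0.554 without each other library and under the other scalings. Its percentiles, 51.9 and 34.5 against 26.4 and 29.9, were also lower in both KO libraries. The third region (chr3:89147011-89148277) lies in the body of the neighbouring gene Hcn3 and had 315 and 248 against 253 and 247.

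Hk1 encodes hexokinase 1, which starts glycolysis by phosphorylating glucose. Its strongest region (chr10:62339457-62341043) sat on the internal start 2, with summits at +25, +25, +25 and +26 from that start, the closest agreement of position among the main regions. With 1279, 533, 533 and 650 unscaled fragments it was at the 98.6th, 98.5th, 95.8th and 96.5th percentile of fragments in its lists. Scaled, it had 742 and 767 in WT against 679 and 602 in KO, lower in both KO libraries (log2 -0.24 ± 0.11 SE, adjusted p = 0.341). All 6 Hk1 regions in all 4 libraries had both KO values below both WT values, yet none was called. The lowest fold of them was at a region 7709 bp downstream of start 2 (chr10:62332479-62333138), which had 143 and 142 in WT and 102 and 111 in KO (0.745-fold, adjusted p = 0.207). These 6 regions share 1 gene and the same 4 libraries, so they are not independent.

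Bpgm encodes bisphosphoglycerate mutase, which makes the regulator of oxygen affinity. Its promoter region (chr6:34475641-34476755) had scaled fragments of 368 and 360 in WT and 233 and 295 in KO, 0.722-fold (log2 -0.47 ± 0.13 SE, adjusted p = 0.071). A region 4658 bp upstream (chr6:34471382-34471971) had 176 and 163 in WT and 72.6 and 134 in KO, 0.584-fold (log2 -0.78 ± 0.21 SE, adjusted p = 0.0644). In scaled fragments the KO libraries lay below the WT libraries at both regions and Hemgn KO replicate 1 lay lowest. Neither region passed the threshold. Their percentiles overlapped between genotypes. They were 73.3 and 69.8 in WT against 68.2 and 71.8 in KO at the promoter, and 48.3 and 32.2 against 6.32 and 37.7 upstream. At the promoter the log2 was -0.30 without Hemgn KO replicate 1 (adjusted p = 0.419) and -0.64 without Hemgn KO replicate 2 (0.000486). At the upstream region the log2 was -0.33 (0.543) and -1.22 (2.7e-06) in the same order. The upstream region also passed without WT replicate 2 (-0.83, 0.0421) and when scaled by the library background (-0.80, 0.0025), but not without WT replicate 1 (-0.72, 0.15) or with a cyclic loess scaling (-0.70, 0.125). An intragenic region 10068 bp from the start (chr6:34485645-34486691) had 226 and 189 against 136 and 186, likewise without overlap in scaled fragments. The 3 regions beyond the far end of the gene overlapped between genotypes, at 38.9 to 69.6 in WT and 30.6 to 73.2 in KO.

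Gpi1, Aldoa and Tpi1 encode enzymes of the middle steps of glycolysis, glucose phosphate isomerase, aldolase A and triose phosphate isomerase, and none of their regions had scaled fragments lower in both KO libraries. Gpi1 had 382 and 383 scaled fragments in WT, against 419 and 384 in KO, at its start (chr7:34229622-34230468), a difference of log2 0.069 ± 0.116 SE that did not pass the test (adjusted p = 0.867). Aldoa had 383 and 407 in WT, against 452 and 401 in KO, at its inner starts (chr7:126798492-126800107), with overlap between genotypes (log2 0.11 ± 0.12 SE, adjusted p = 0.757). Its percentiles, 77.0 and 74.7 against 79.2 and 79.5, were higher in both KO libraries. At its start Tpi1 had 235 and 282 in WT, against 290 and 295 in KO (chr6:124813396-124814623). Summits there lay at -11 and +34 from the start in WT and at +510 in both KO libraries, the widest change of position among the main regions. Its percentiles were 57.3 and 52.4 against 39.1 and 48.6, lower in both KO libraries while the scaled fragments were higher in both, beside local backgrounds of 65.1, 29.0, 45.8 and 59.5 fragments. The other region of Tpi1 lies in the body of the neighbour Spsb2 (chr6:124808617-124809906) and had 280 and 292 against 363 and 367, 1.28-fold (log2 0.35 ± 0.12 SE, adjusted p = 0.143).

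Prdx2 encodes peroxiredoxin 2, a thiol peroxidase abundant in red cells. Its start was covered by a strong peak in all 4 libraries (chr8:84968887-84970082), whose summit the rule gives to the neighbouring gene Rnaseh2a, so it is shown beside the members and not counted among them. It had 584 and 548 scaled fragments in WT and 526 and 522 in KO (log2 -0.11 ± 0.11 SE, adjusted p = 0.737). The region that the rule assigns lies 1492 bp inside the gene (chr8:84970849-84971435) and fell in KO. It had 341 and 256 in WT and 195 and 200 in KO, a mean of 299 ± 59.9 against 197 ± 3.67 (SD, n = 2 each), or 0.668-fold (log2 -0.58 ± 0.14 SE, limma, adjusted p = 0.0416). Both KO libraries lay below both WT libraries, and the spread came from the WT replicates. The call was lost without WT replicate 1, where the difference was smaller (log2 -0.38, adjusted p = 0.59). It was also lost without Hemgn KO replicate 1 (-0.56, 0.0717) and with a cyclic loess scaling (-0.53, 0.0699), at nearly the same difference. It held on leaving out WT replicate 2 (-0.79, 0.0047) or Hemgn KO replicate 2 (-0.60, 0.00405), and when scaled by the library background (-0.60, 0.0214). The percentile of the same region was 27.2 in WT replicate 1 and 1.94, 1.43 and 2.65 in the others, beside local backgrounds of 162, 67.0, 60.7 and 85.9 fragments.

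Cat encodes catalase, which breaks down hydrogen peroxide. Its promoter region (chr2:103483789-103485712) had 511 and 486 scaled fragments in WT and 480 and 451 in KO (log2 -0.10 ± 0.11 SE, adjusted p = 0.77). Its percentiles were higher in both KO libraries, 83.3 and 82.6 against 80.1 and 75.0, so the order of the genotypes differed between the measures. An intragenic region 4700 bp from the start (chr2:103480156-103480703) had 217 and 161 in WT and 103 and 145 in KO, 0.655-fold (log2 -0.61 ± 0.18 SE, adjusted p = 0.0864). Its percentiles overlapped between genotypes, at 45.7 and 11.6 in WT and 4.44 and 25.7 in KO. In scaled fragments the KO libraries lay below the WT libraries without overlap at this region. It passed without WT replicate 2 (log2 -0.82, adjusted p = 0.0163) or Hemgn KO replicate 2 (-0.86, 0.000577) and when scaled by the library background (-0.63, 0.0195). It did not without WT replicate 1 (-0.40, 0.729) or Hemgn KO replicate 1 (-0.36, 0.499), or with a cyclic loess scaling (-0.54, 0.152). The remaining 2 regions in all 4 libraries were weak, at 23.0 to 37.7 in WT and 21.6 to 31.5 in KO.

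Gpx1 encodes the main glutathione peroxidase of the cytosol. Its start (chr9:108338603-108339672) had 561 and 515 scaled fragments in WT and 453 and 494 in KO, lower in both KO libraries (log2 -0.18 ± 0.12 SE, adjusted p = 0.505). A region 649 bp past its far end (chr9:108340255-108341461) had 270 and 210 against 146 and 228, with overlap (adjusted p = 0.302).

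Car2 encodes carbonic anhydrase II, which speeds the conversion of carbon dioxide to bicarbonate. Its boundary region (chr3:14886114-14887375) had 818 and 750 scaled fragments in WT and 874 and 714 in KO, the highest mean of the member regions, although the Hk1 region at start 2 was higher in WT replicate 2. The groups overlapped (log2 0.013 ± 0.122 SE, adjusted p = 0.98), and the sign turned with a cyclic loess scaling (-0.015), when scaled by the library background (-0.0087) and without WT replicate 2 (-0.05) or Hemgn KO replicate 1 (-0.13). A distant region 65052 bp beyond the gene (chr3:14965421-14965952) was higher in both KO libraries, at 23.8 and 27.3 in WT and 33.1 and 50.9 in KO (log2 0.69 ± 0.28 SE, adjusted p = 0.246). Its unscaled counts were 41, 19, 26 and 55 fragments, and its percentiles, 58.2 and 48.0 against 63.3 and 80.2, had the same order.

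**Figure D4:**
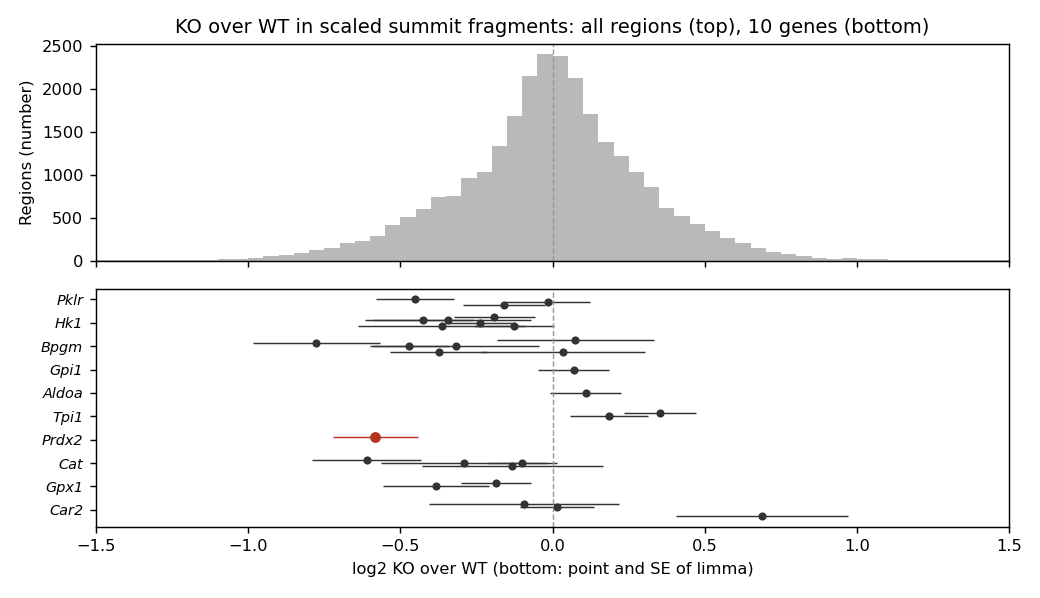
Top, number of regions by log2 KO over WT in scaled summit fragments for the 27473 regions in all 4 libraries. Bottom, the same measure with its limma SE for the 29 regions of the 10 genes; the red point is the Prdx2 region called lower (-0.58), and most points of Hk1, Bpgm, Cat and Gpx1 lie left of 0.

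At the gene boundaries of other members of the same pathways the median difference was near 0. Of 49 genes of glycolysis, glucose and lactate transport, the pentose phosphate pathway, antioxidant defence and other carbonic anhydrases, 38 had a boundary region in all 4 libraries, and 7 (Hk3, Eno3, Ldha, Prdx4, Txnrd1, Gpx4 and Cyb5r3) had none in any library. Ldha, Prdx4, Txnrd1 and Gpx4 of these had peaks in all 4 libraries at other RefSeq starts. Over the 38 regions the median log2 KO over WT was -0.0078, with 8 below and 3 above without overlap (22.1% and 21.8% of all regions), 0 called in either direction and 1 with an unadjusted p under 0.05. These are boundary regions, whereas the median of -0.18 for the 10 genes covers all 29 of their regions, including those away from a boundary. At the boundary regions of the 10 genes log2 was -0.017 (Pklr), -0.47 (Bpgm), 0.069 (Gpi1), 0.18 (Tpi1), -0.10 (Cat), -0.18 (Gpx1) and 0.013 (Car2). At the Prdx2 start it was -0.11. In percentiles 4 of the 38 were above and 5 below without overlap (9.97% and 13.6% of all regions). Positive KO minus WT differences of percentile included Car3 (8.98 points) and Bsg (5.40), and the lowest differences were at Hk2 (-6.62), Gapdh (-5.78) and Eno1 (-4.59). WT-only regions were assigned to Hk2, Slc2a1, G6pdx and Gclc and a KO-only region to Cyb5r3. Among 10 red cell membrane skeleton genes with such a region, 5 were below and 1 above in scaled fragments (against the same shares of all regions). An unadjusted p under 0.05 was found at 5, of which Add2 was higher in KO and the others lower, and 0 were called. In percentiles 0 of these 10 were below and 1 above (13.6% and 9.97% of all regions). Of 7 heme synthesis genes 3 were below and 0 above in scaled fragments (22.1% and 21.8% of all regions), with 0 called and 0 at an unadjusted p under 0.05. The percentiles of these 7 boundary regions ran the other way, with 4 above (9.97% of all regions) and 0 below (13.6%). Their median KO minus WT difference was 5.08 points. This order did not hold over all 24 heme synthesis regions in all 4 libraries, where 3 were above, 2 below and the median was -0.90. A difference between these lists and the 10 genes was not tested.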

How the data were processed

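Chromatin accessibility was measured in 4 libraries, and the deposited data were 1 MACS2-format peak list per library, none pooled. The 10 genes and all lists were chosen with earlier results of these data known. The submitters' processing notes name MACS2 2.2.7.1, Picard 2.21.4, SAMtools 1.9 and Bowtie2 2.3.5. Settings and build: not given in the sources used here. Column 7 of the deposited lists is the authors' fold ratio of summit fragments to local background, columns 8 and 9 are the authors' −log10 p and −log10 q, and the deposited score is the whole part of 10 times column 9. Coordinates are those of the lists, 1-based. In windows at starts of GRCm38.p6 56.3% to 59.6% held a peak, against 2.21% to 4.23% after shifts of 5, 20 or 50 kb.

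Summits, nearest RefSeq gene ends, percentiles and Poisson inversion of fold and p (tolerance 0.001) were computed in Python 3.11.15 with pandas 2.3.3, NumPy 2.4.6 and SciPy 1.17.1. Log2 scaled fragments were compared with limma 3.58.1 (trended variance) in R 4.3.3, without a replicate block. In data simulated with normal noise of a single spread for all regions, 152 of 200 regions changed 2-fold and 7 unchanged ones were called. In the real data the spread differed between regions, and smaller changes were not simulated, so these rates do not carry over to the regions here. Scaling by the median ratio assumes that most regions did not change, and a peak is absent from a list below the authors' threshold. A summit can differ between libraries, so a region's value is its highest summit. Alternatives were other thresholds, rankings, merging, assignment, scaling, and leaving out each library. For each gene the boundary region with the highest mean percentile was described, with all exclusive or non-overlapping regions counted and the largest given. Pathway genes were named when they had no boundary peak, an exclusive region or 1 of the 3 largest differences in a direction; some of these are not reported here. The Prdx2 start, the neighbouring regions and those with low adjusted p were chosen after their values were seen.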

Additional observations from a re-analysis of the deposited data

How the results depend on the processing

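With each replicate left out, the WT-only count was 4 to 13, the KO-only count 1 to 7, the count in all libraries 29 to 31, the counts with percentiles above and below 3 to 14 and 3 to 24, and the median percentile difference -6.75 to 4.64. Over the same settings the counts of scaled fragments above and below were 5 to 7 and 16 to 21, and the median log2 -0.27 to -0.12. With a library fewer, presence in a single genotype, presence in all libraries and non-overlap are easier to meet. The counts of exclusive, shared and non-overlapping regions can therefore only stay or rise. A limma fit with a library left out assumes that a lone library varies like the others. Its number of calls over all regions varied widely with the library left out. With lists of equal length 2 regions were WT-only, and 5 and 5 had percentiles above and below. At a fold of at least 6, 1 region was WT-only, 0 KO-only and 11 in all 4 libraries. With the nearest boundary within 10 kb these were 1, 0 and 19. Ranking by −log10 q gave 1 above and 1 below, percentiles among regions in all 4 libraries 6 and 5, and ranking by summit fragments, added after seeing the data, 0 and 1. The cause of these moves was not tested. A cyclic loess scaling left 0 limma calls lower, and scaling by the library background gave 3 lower and 2 regions above without overlap.

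Same-numbered libraries deviated in opposite directions (correlation -0.20 over 27473 regions), so the numbers do not establish a pairing. With the replicate block, percentiles lay above at 3 and below at 4 regions, scaled fragments above at 4 and below at 17, and 2 regions (Prdx2 and upstream Bpgm) were called lower. Over all 27473 regions limma with this block called 227 higher and 185 lower. With the crossed pairing, added after seeing the data, percentile counts were 5 and 13, scaled counts 6 and 18, and limma calls 1 higher and 6 lower. Calls rose over all regions too, to 717 higher and 1478 lower, against 188 and 174 without a pairing. An order within pairs is also easier to meet than non-overlap, so the paired counts cannot be set against those without a pairing. The sign of log2 KO over WT turned under at least 1 scaling or left-out library at 7 of the 29 regions and under none at 22. The 7 were region 4 of Pklr, regions 9 and 10 of Bpgm, region 3 of Cat, region 10 of Car2, Pklr at its starts (0.048 with loess, 0.033 without WT replicate 1, 0.037 without Hemgn KO replicate 1, against -0.070 without Hemgn KO replicate 2) and Car2 at its boundary (-0.015 with loess, -0.0087 with the background scaling, -0.05 without WT replicate 2, -0.13 without Hemgn KO replicate 1, against 0.16 without Hemgn KO replicate 2). Depth limits every presence call, since the shallowest library lists no peak under 9 fragments.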
